A study of Mus musculus with 18 samples.

Results

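Open chromatin regions whose summits lay inside exons of protein-coding genes, away from any promoter, were examined in mouse retina. Peaks of 18 ATAC-Seq libraries were merged wherever they overlapped by at least 1 bp. A merged region was kept when at least 2 of the 18 peak lists called it. It counted as exonic when the median summit of its peaks lay in an exon of a protein-coding gene and more than 2.5 kb from the transcript start of any gene (mm10, GENCODE M21 basic set). Of 73567 consensus regions, 2104 (2.86%) met the rule. Distal intronic regions found by the same steps numbered 29781 (40.5%), and distal intergenic regions 18751 (25.5%).

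The study asked how the retina changes with age and after a mild rise of intraocular pressure (IOP). All 18 libraries came from whole retina of wild-type mice (C57BL/6 or C57BL/6J in the text of the study) aged 3 or 18 months. At each age 3 libraries came from eyes raised to 30 mmHg for 1 hour, 3 from the opposite (contralateral) eyes of pressure-treated animals, and 3 from untreated animals, and the titles of the treated and contralateral samples give day 2. The text of the study gives a later day for these data, and which of them holds could not be settled here. The treatment text that the samples share also names dasatinib and vehicle, and no label assigns a library to a drug arm. The study calls its ATAC-Seq replicates biological, but no label ties the individual libraries to separate animals, so the spread between the 3 libraries of a group may be partly technical.

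ATAC-Seq marks DNA that the Tn5 transposase can cut, which is mostly DNA not wrapped in nucleosomes. Open regions away from promoters are often enhancers or sites bound by CTCF, a factor that holds chromatin loops. Exons can hold such elements too, within coding sequence or within the untranslated ends of the transcript, and exon DNA is on the whole richer in G and C than intron DNA. In whole retina, most nuclei are those of rod photoreceptors. In bulk tissue, fewer cells with an open region and a less open region in each cell cannot be told apart.

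The summit windows of 7 regions show what these elements look like. The leading 5 were taken by rank of peak height among the strongest regions and the regions named in a comparison, those at an unadjusted p under 0.05 included. They were limited to windows in which every exon base is coding in all overlapping transcripts. The last 2 were added after their values were seen, Cfdp1 as the tallest region lost after IOP at 18 months and Shox2 as the only exonic region past the age test of fold. Each window holds 200 bases centred on the summit, 5′ to 3′ on the strand of the gene (mm10), with coding exon bases in capitals and intron bases in lower case.
Sptbn4 exon 33, chr7:27361482-27361681, minus strand: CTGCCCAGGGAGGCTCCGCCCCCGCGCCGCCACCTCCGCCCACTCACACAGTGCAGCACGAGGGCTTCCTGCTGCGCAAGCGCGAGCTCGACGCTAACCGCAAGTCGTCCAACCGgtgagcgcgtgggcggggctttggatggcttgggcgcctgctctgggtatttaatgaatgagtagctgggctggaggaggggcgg
Scnn1a exon 2, chr6:125331050-125331249, plus strand: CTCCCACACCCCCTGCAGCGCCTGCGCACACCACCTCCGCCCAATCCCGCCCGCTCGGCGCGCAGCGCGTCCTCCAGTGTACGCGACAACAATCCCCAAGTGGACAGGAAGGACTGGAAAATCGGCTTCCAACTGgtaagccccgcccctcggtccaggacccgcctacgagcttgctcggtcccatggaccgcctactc
Slc1a6 exon 2, chr10:78787826-78788025, plus strand: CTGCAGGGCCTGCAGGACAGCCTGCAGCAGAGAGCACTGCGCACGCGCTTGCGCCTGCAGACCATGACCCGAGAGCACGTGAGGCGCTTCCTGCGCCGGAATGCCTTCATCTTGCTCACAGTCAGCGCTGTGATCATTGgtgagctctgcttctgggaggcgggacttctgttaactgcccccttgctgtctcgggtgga
Scn8a exon 12, chr15:100983822-100984021, plus strand: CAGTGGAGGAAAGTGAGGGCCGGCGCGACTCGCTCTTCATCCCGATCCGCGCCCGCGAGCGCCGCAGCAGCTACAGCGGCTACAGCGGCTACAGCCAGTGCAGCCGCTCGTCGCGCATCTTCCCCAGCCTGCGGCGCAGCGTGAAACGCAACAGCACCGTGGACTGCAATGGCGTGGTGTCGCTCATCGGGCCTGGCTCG
Mcub exon 5, chr3:129918529-129918728, minus strand: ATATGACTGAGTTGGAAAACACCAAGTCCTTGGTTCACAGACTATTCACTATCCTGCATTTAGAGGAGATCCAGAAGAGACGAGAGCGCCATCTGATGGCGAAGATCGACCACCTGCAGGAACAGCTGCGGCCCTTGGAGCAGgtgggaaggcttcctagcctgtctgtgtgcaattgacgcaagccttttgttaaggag
Cfdp1 exon 4, chr8:111840359-111840558, minus strand: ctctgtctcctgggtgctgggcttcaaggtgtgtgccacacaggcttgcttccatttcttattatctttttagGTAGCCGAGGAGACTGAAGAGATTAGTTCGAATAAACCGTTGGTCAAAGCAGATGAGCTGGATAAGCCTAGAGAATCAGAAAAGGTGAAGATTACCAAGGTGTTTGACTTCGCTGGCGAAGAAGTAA
Shox2 exon 5, chr3:66973715-66973914, minus strand: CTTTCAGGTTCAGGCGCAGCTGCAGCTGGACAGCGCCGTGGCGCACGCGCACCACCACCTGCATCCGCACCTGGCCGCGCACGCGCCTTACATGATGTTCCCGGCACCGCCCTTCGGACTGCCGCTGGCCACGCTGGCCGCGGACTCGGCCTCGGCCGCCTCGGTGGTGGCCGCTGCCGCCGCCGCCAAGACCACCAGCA
The windows of Scn8a and Shox2 were coding throughout, and the other 5 spanned an exon edge, with 115 to 143 coding bases. The Sptbn4, Scnn1a and Shox2 windows held GGGCGG on either strand, the letters that Sp and Klf factors favour. The Mcub and Cfdp1 windows held CAGATG, an E-box of the kind Neurod1 binds. The Slc1a6 and Scn8a windows held 0 of the motifs searched.

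The peak lists held 36011 to 66160 peaks per library. The number of reads was not used here, so the depth behind a missing call is unknown. Libraries differed in their shortest peak, which MACS2 sets by default from the estimated fragment length: it was 79 to 89 bp in the 6 untreated libraries, 114 to 122 bp in 5 of the treated or contralateral libraries, and 148 to 157 bp in the other 7. Untreated and contralateral libraries therefore differ in this measure as well as in origin, and these cannot be told apart. Promoters of rod genes (Nrl, Gnat1), cone genes (Arr3, Gnat2), and of Pax6, Pou4f1 and Glul held a peak in all 18 libraries. Other markers were called in fewer libraries (Grm6 in 17, Rbpms in 15, Rlbp1 in 9, Vsx1 in 8, Tfap2b in 5). Promoters of liver Alb, lymphocyte Cd3e and lens Cryga were called in 0 libraries.

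Exonic regions were split almost evenly between coding sequence and the 3' end of the transcript. The summit lay in coding sequence in 1115 regions (53.0%), in a 3' UTR in 958 (45.5%) and in a 5' UTR in 31 (1.47%). The last exon held 1268 (60.3%) and internal exons 827 (39.3%), while 8 lay in single-exon transcripts and 1 in the leading exon. Coding summits were mostly internal (798) and less often in the last exon (316). Per Mb of territory more than 2.5 kb from a transcript start, exons held 39.5 regions, introns 31.0 and intergenic DNA 13.1. Coding sequence held 42.5 per Mb and the remaining exon bases 36.5.

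Coding and 3' UTR regions differed in how they sat on the exon. Regions in 3' UTRs lay wholly inside the exon in 84.7% of cases, in exons of median length 2716.5 bases. Coding regions lay wholly inside in 25.9%, since the median exon was 242 bases long and 617 regions were wider than their exon. A median of 66.9% of a coding region was exonic, so the coding label describes where the summit fell and not the whole open stretch. The median exonic region was 372 bp wide, with a range of 93 to 2276 bp, against 345 bp for distal intronic and 353 bp for distal intergenic regions. The median distance to the start of the gene's own transcript was 25.4 kb, and 323 regions lay over 100 kb from it.

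Summit windows of exonic regions were richer in G and C than those of the other distal classes, given here as a description with no test. Median GC content of the 200 bases at the summit was 58.0% for coding regions and 52.5% for 3' UTR regions, against 50.5% for both distal intronic and distal intergenic regions. Mean CpG number in the window was 9.41 in coding regions, 3.92 in 3' UTR regions, 3.09 in intronic and 3.77 in intergenic regions. Motif letters were counted on both strands in the same windows. TAATCC, bound by the photoreceptor factors Crx and Otx2, was present in 7.71% of coding and 15.8% of 3' UTR windows, against 20.4% of intronic, 16.0% of intergenic and 15.4% of all consensus windows. The homeodomain core TAATTA, which shares its leading TAAT with TAATCC, was present in 1.26% of coding, 3.65% of 3' UTR and 5.28% of intronic windows.

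GC-rich letters ran the other way in coding windows. GGGCGG was present in 17.4% of coding and 8.25% of 3' UTR windows, against 6.33% of intronic and 8.7% of intergenic windows. It was in 18.7% of all consensus windows, a set that includes promoters. The AP-1 letters TGANTCA were present in 3.41% of coding, 5.74% of 3' UTR, 7.81% of intronic and 6.6% of all consensus windows. CTCF matches were most frequent in 3' UTR windows at 12.5%, with 7.44% of coding, 6.31% of intronic, 9.76% of intergenic and 6.31% of all consensus windows. The remaining motifs lay closer together across classes. CAGATG was in 21.1% of exonic and 22.2% of intronic windows, TTGGCA (NFI) in 11.6% and 12.6%, AGGTCA (nuclear receptors) in 15.2% and 17.7%, TTCNNNGAA (STAT) in 3.61% and 4.59%, and TGCTGAC (Nrl and Maf) in 5.61% and 5.32%. A match describes letters only, and the share of each depends on base composition.

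The recurrence of exonic regions was highest at the extremes. In all 18 libraries 547 regions (26.0%) were called, while 300 (14.3%) were called in only 2. For comparison, 21.1% of distal intronic, 23.8% of distal intergenic and 33.6% of all consensus regions were called in all 18. In only 2 libraries, 15.4%, 13.5% and 12.1% of these were called, so the shape is shared. Regions in 3' UTRs were called in all 18 in 29.0% of cases and coding regions in 23.1%. Recurrent regions were wider and taller. Median width rose from 199 bp for those in 2 libraries to 653 bp for those in 18, and the median within-library percentile of peak fold rose from 18.0 to 64.3. The width spans all peaks merged into a region, so it grows with the number of lists by construction. Peak fold is the enrichment of the summit over the local background of the same library, and the percentile ranks a peak among all peaks of its list. Median GC hardly moved, at 55.5% for regions in 2 libraries and 56.5% for regions in all 18.

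**Figure D1:**
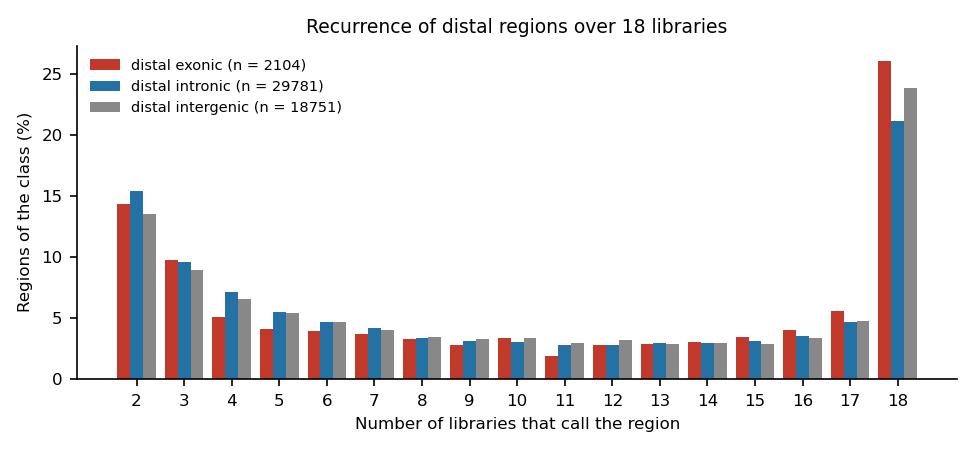
Share of regions in each distal class (y axis, percent) against the number of libraries that call the region (x axis, 2 to 18), with exonic regions in red, intronic in blue and intergenic in grey. Exonic regions pile up at both ends, with 14.3% in 2 libraries and 26.0% in all 18. Intronic (15.4% and 21.1%) and intergenic regions (13.5% and 23.8%) do so as well.

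The strongest exonic regions ranked near the top of their peak lists. By mean percentile over the 18 libraries the leading 10 lay in Sf3b5, Lars2, Sptbn4, Scnn1a, Rdh13, Cyp4f13, Agpat5, Uggt2, Bcat2 and Xpo7, with mean percentiles from 99.3 to 95. Several of them have a transcript start close by in another gene set. The Sf3b5 summit (chr10:13007919-13008987, 5' UTR, encoding a subunit of the splicing factor SF3B) lay 3.05 kb from the nearest start of the set used and 59 bp from a RefSeq start. The summits at Uggt2, Xpo7 and Cyp4f13 lay 86 bp, 43 bp and 0.665 kb from a start in the comprehensive GENCODE M21 set. The Lars2 region (3' UTR, chr9:123461810-123462236) had 3 near copies elsewhere in the genome, of up to 99% identity, so its reads may come from other loci.

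The other 5 lay over 2.5 kb from every start in the 4 gene sets compared. The tallest was exon 33 of Sptbn4, which encodes beta-IV spectrin of the axon initial segment (chr7:27361251-27361952). Its fold was 20.5, 18.5 and 19.1 in the 3-month untreated libraries, 20.9, 20 and 18.9 in contralateral and 19.7, 19.1 and 18.9 in IOP libraries. The values at 18 months were 19.4, 19.4 and 19.5 in untreated, 22.3, 18.9 and 19.6 in contralateral and 19.8, 18.7 and 17.5 in IOP libraries. All 6 groups overlapped, with a mean of 19.5 ± 1.05 (SD, n = 18), though after normalization contralateral libraries were higher than untreated ones by a log2 difference of 0.25 (limma adjusted p = 0.00325).

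Exon 2 of Scnn1a, which encodes the alpha subunit of the epithelial sodium channel, had a mean fold of 19.1 ± 3.25 (SD, n = 18; chr6:125330716-125331384). The 3' UTR region of Rdh13, a retinol dehydrogenase of mitochondria, had a fold of 17.5 ± 2.75, and that of Agpat5, a lipid acyltransferase, 16.4 ± 2.46 (SD, n = 18 each). The last coding exon of Bcat2, the mitochondrial branched-chain aminotransferase, had 16.2 ± 0.923 (SD, n = 18).

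Membership leaned on the gene set. Of the 2104 regions, 495 (23.5%) lay within 2.5 kb of a start in the comprehensive GENCODE set, 24 (1.14%) within 2.5 kb of a known RefSeq start and 121 (5.75%) when predicted RefSeq transcripts were included. Coding regions were near a comprehensive start in 30.3% of cases and 3' UTR regions in 15.2%. A total of 1533 (72.9%) were over 2.5 kb from every start in all of these sets. Near copies elsewhere in the genome (at least 95% identity over at least 100 bases of the 200-base window) were found for 82 regions (3.9%).

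Exonic regions lay in 1875 genes, 8.55% of the 21924 protein-coding gene names, and 1678 of these genes held a single region. The gene with the most regions, D1Ertd622e, held 5 within a last exon of 40044 bases, called in 2, 2, 15, 18 and 18 libraries. Srcin1 held 4 (called in 13, 18, 8 and 12 libraries) and Med13l 4 (3, 2, 2 and 4). Genes with 3 each included Sptbn4, Syne1, Tln2, Kmt2a, Sec63 and Prpf19.

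Lists of gene groups were read against that 8.55%. Long genes have more exonic sequence, and list shares were not adjusted for length. Of 25 large cytoskeletal and synaptic scaffold genes, 9 (36.0%) held an exonic region, led by Sptbn4 and by Sptb, with 3 regions each, and Dst with 2, and 1 of the Sptb regions lay 1.05 kb from a comprehensive start. Among 50 photoreceptor genes 8 (16.0%) held 1, among 56 retinal transcription factors 10 (17.9%), among 32 chromatin regulators 6 (18.8%), and among 45 stress, senescence and inflammation genes 7 (15.6%). Among 38 extracellular matrix genes 3 (7.89%) held 1 (Lama4, Col6a3 and Col18a1), each called in 2 to 4 libraries.

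Within the photoreceptor list, Rp1, a microtubule protein of the outer segment, held 3 regions called in 3, 10 and 17 libraries, and Rpgrip1 of the connecting cilium held 2 called in 17 and 3, which lay 287 and 151 bp from a start in the comprehensive GENCODE set. Gucy2f, a retinal guanylate cyclase, held 1 coding region in exon 2 that all 18 libraries called (chrX:142189231-142189857), with a fold of 6.81 ± 1.53 (SD, n = 18). Among retinal transcription factors Mef2d held 2 regions (18 and 3 libraries), Six3 2 (3 and 17) and Sall1 1 (3 libraries), and 1 of the Mef2d regions lay 41 bp from a comprehensive start.

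Chromatin regulators were led by Kmt2a, a histone H3K4 methyltransferase, with regions called in 16, 6 and 18 libraries, followed by Chd7 (13 and 3) and Kdm6b (18). Of the Kmt2a regions 2 lay 89 bp and 1.25 kb from a comprehensive start, as 1 Chd7 region did at 1.09 kb, and the Kdm6b region lay 0.872 kb from a predicted RefSeq start. In the stress list Il6st, the shared receptor chain of the IL-6 family, held 1 region called in 18 libraries. Mmp9, a matrix metalloproteinase, held the tallest region of the list in coding exon 11 (chr2:164952995-164953749), at a mean percentile of 80.8 and 0.972 kb from a comprehensive start. Its fold was 13, 12.1 and 15.2 in 3-month untreated, 8.04, 11.0 and 9.59 in contralateral and 10.1, 9.05 and 8.26 in IOP libraries. Values at 18 months were 14.4, 13.7 and 15.7, then 10.0, 8.4 and 12.1, then 8.98, 9.12 and 6.45, in the same order. At 3 months and at 18 months the raw folds of untreated libraries lay above the contralateral ones, and those of IOP and contralateral libraries overlapped. After normalization the log2 difference, contralateral minus untreated, was -0.22.

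The number of exonic regions called varied widely among libraries of the same group. The 3-month untreated libraries called 1110, 967 and 1453, the contralateral ones 950, 1673 and 1012, and the IOP ones 1358, 1113 and 1092. At 18 months the counts were 1209, 1171 and 1236 in untreated, 1548, 1282 and 1501 in contralateral, and 1250, 1226 and 886 in IOP libraries. All groups overlapped at 3 months. At 18 months the contralateral libraries (1282 to 1548) lay above the IOP libraries (886 to 1250). The number of all consensus regions called moved the same way, at 48372 to 54603 in contralateral and 34252 to 46064 in IOP libraries. The exonic share of these overlapped, at 2.65% to 2.87% against 2.59% to 2.82%.

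The shortest-peak length moved with these counts. The 5 libraries with a shortest peak of 114 to 122 bp called 1250 to 1673 exonic regions, which were 2.82% to 2.92% of all regions they called. The 7 libraries at 148 to 157 bp called 886 to 1282, or 2.53% to 2.66%. The coding share of called exonic regions was 53.8% ± 1.04 (SD, n = 5) in the former, 50.2% ± 0.602 (SD, n = 7) in the latter and 48.8% ± 0.866 (SD, n = 6) in untreated libraries. Within the same peak-length class at 18 months, IOP libraries called 1250 against 1548 and 1501 in contralateral ones (114 to 122 bp), and 1226 and 886 against 1282 (148 to 157 bp). As shares of all regions called, these were 2.823% against 2.835% and 2.874%, and 2.662% and 2.587% against 2.65%. At 3 months the order differed by class, with 1358 in IOP against 1673 in contralateral, and 1113 and 1092 in IOP against 950 and 1012 in contralateral libraries. The part of peak length in these counts was not tested.

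**Figure D2:**
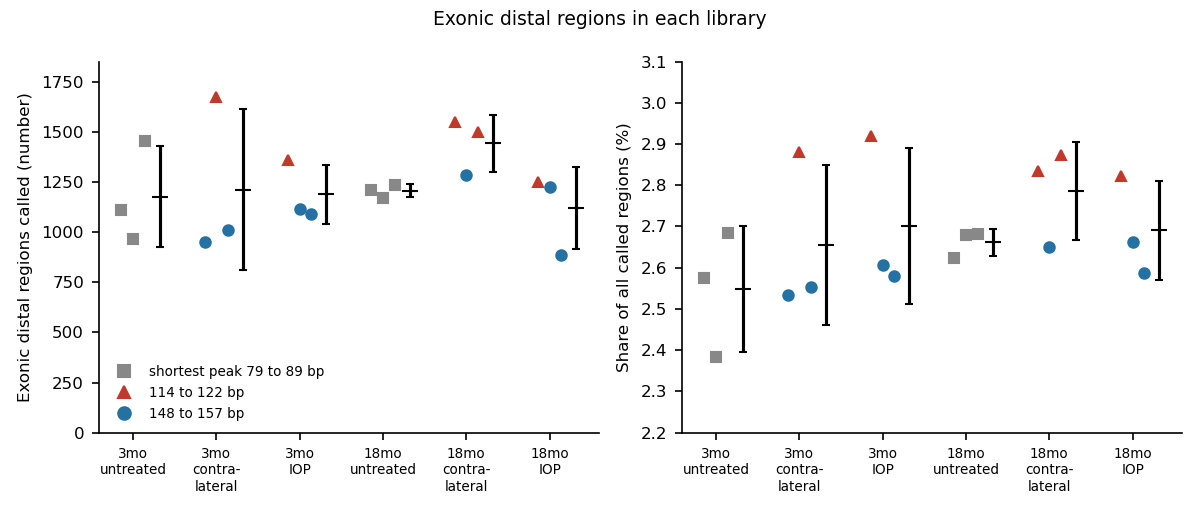
Exonic regions called in each library (left, number) and their share of all consensus regions called (right, percent, axis from 2.2), by group, with the marker giving the length of the library's shortest peak and the bar the group mean and SD (n = 3). Red triangles, the libraries with a shortest peak of 114 to 122 bp, sit highest on the right, at 2.82% to 2.92%.

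The age comparison set 6 control libraries of 18 months (untreated and contralateral) against 6 of 3 months. Calls could reach an unadjusted p under 0.05 in 9868 consensus regions, of which 299 were exonic. Fisher's exact test (two-sided) found 6 exonic regions more often called at 18 months and 0 more often called at 3 months at an unadjusted p under 0.05, against 3.19% and 0.385% of all regions tested. No region of any class passed after adjustment, and the smallest adjusted p among exonic regions was 0.424 (Fisher's exact test, Benjamini-Hochberg over all 9868). The smallest unadjusted p was 0.00216 (Fisher's exact test), the least that 6 against 6 libraries can give. Over 9868 regions, none can pass the adjustment unless many regions split completely. The lack of a pass therefore does not show that calls were alike at both ages.

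The 5 highest of these 6 were in Hace1, a ubiquitin ligase, Acpp, an acid phosphatase, Aldh2, the mitochondrial aldehyde dehydrogenase, Neo1, a netrin and RGM receptor, and Zfp26, a zinc finger protein. The coding Hace1 region (exon 10, chr10:45649878-45650243) was called in 1 of 3 untreated and 0 of 3 contralateral libraries at 3 months. It was called in 3 of 3 of each at 18 months (Fisher's exact p = 0.0152, adjusted p = 0.424). Its fold was 5.12 in the 3-month library that called it, and 5.91, 6.86, 7.71, 6.59, 4.97 and 8.0 in the 6 at 18 months, so the called values overlapped. Acpp, Neo1 and Zfp26 had the same counts as Hace1 in control libraries. Aldh2 was called in 0 of 6 at 3 months and 5 of 6 at 18 months. All 5 were called in 0 of 3 IOP libraries at 3 months. At 18 months the IOP libraries called Neo1 in 3 of 3 and the other 4 in 1 of 3.

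Peak fold was compared in the 24751 regions that all 18 libraries called, 547 of them exonic, with limma on quantile-normalized log2 fold. The folds printed per library are raw, before this normalization, so gaps between them need not match the log2 differences. For age 1 exonic region was higher at 18 months and 0 were higher at 3 months at an adjusted p under 0.05, against 0.279% and 0.101% of all regions tested. At an unadjusted p under 0.05, 60 exonic regions were higher at 18 months (11% of 547, against 6.93% of all) and 14 higher at 3 months (2.56%, against 5.62%). The median log2 difference was 0.04 over exonic regions and -0.01 over all regions. By GC content, the median was 0.076 in the third of exonic regions with the lowest GC and 0.011 in the third with the highest, and the part of GC in this difference was not tested.

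The region past the adjusted test was the last coding exon of Shox2, a homeodomain transcription factor (chr3:66973377-66973997), whose GC-rich window is printed above. Its fold was 6.36, 6.04 and 7.4 in untreated and 3.55, 7.79 and 3.91 in contralateral libraries at 3 months. At 18 months it was 10.2, 9.45 and 9.25 in untreated and 12, 5.93 and 10.7 in contralateral libraries. Untreated libraries of the 2 ages did not overlap, while the contralateral ones did (7.79 at 3 months against 5.93 at 18 months). The former value came from a library with a shortest peak of 116 bp and the latter from a library at 149 bp. The log2 difference was 0.63 (SE 0.13, limma adjusted p = 0.0344). It failed the threshold in 10 of 12 fits that left out 1 library, with adjusted p up to 0.106, while the log2 difference stayed between 0.55 and 0.75 in all 12. With the shortest-peak class as a covariate the log2 difference was 0.57 (limma adjusted p = 0.015). The IOP libraries, which did not enter the contrast, had 5.71, 5.53 and 4.85 at 3 months and 8.55, 7.27 and 6.61 at 18 months, and these did not overlap.

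IOP was compared with the contralateral eye within each age. At 3 months 6 exonic regions were seen by every IOP library and by no contralateral one (3 against 0, 0.285% of 2104, against 0.217% of all consensus regions). In the reverse direction 4 were seen by every contralateral library and by no IOP library (0.19%, against 0.241%). A test of 3 against 3 libraries cannot reach a p under 0.1, so none is given. The gained regions ranked highest were in Scmh1, a Polycomb protein, Polr3k, an RNA polymerase III subunit, Rasgrp3, a Ras exchange factor, Fech, the ferrochelatase of heme synthesis, and Ptch1, the hedgehog receptor. The untreated libraries called Scmh1 in 3 of 3 at each age. The lost regions were in Rabep1, Fgl1, Ccdc97 and Adamts10, and Rabep1, an endosomal Rab5 effector, was called in 3 of 3 untreated libraries at each age and lay 2.42 kb from a comprehensive start.

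At 18 months the split was uneven. In IOP libraries 41 exonic regions were lost (1.95% of 2104, against 2.23% of all consensus regions) and 1 was gained (0.0475%, against 0.239%). The gained region lay in exon 7 of Gtf2a1, a subunit of TFIIA (chr12:91567666-91568107), with a fold of 4.19, 8.26 and 5.86 in the IOP libraries at 18 months. It was also called in 1 IOP library at 3 months (4.09) and in no control library, and its window had a near copy of 95.2% identity elsewhere in the genome. Taking the same number of peaks from each library turned the split to 12 lost and 12 gained. The share over all consensus regions is not given for this setting, so whether the shift is particular to exonic regions cannot be read.

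The 41 lost regions were 24 coding and 17 3' UTR regions, called in a median of 9 libraries. Of these, 13 were called in all 3 and 11 in none of the untreated libraries of 18 months. At 3 months, 10 were called in no contralateral and 18 in no IOP library. The tallest in the contralateral libraries was in exon 4 of Cfdp1, a chromatin protein named for craniofacial development, whose window is printed above. Its fold was 7.0, 8.52 and 11.4 in contralateral and 8.51, 10.9 and 11.0 in untreated libraries at 18 months, and it was called in 0 of 3 IOP libraries. At 3 months it was called in 3 of 3 untreated (5.2, 5.26 and 6.83), 0 of 3 contralateral and 0 of 3 IOP libraries. The next were in Smarce1, a BAF complex subunit, Ttc21b, a ciliary transport protein, Krt24, a keratin, and Sytl4, a secretory granule protein. Regions in Cpne6, Fam124a, Hoxc9 and Plpbp, named after their calls were seen, were called in the 3 contralateral libraries of 18 months and in no other library.

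**Figure D3:**
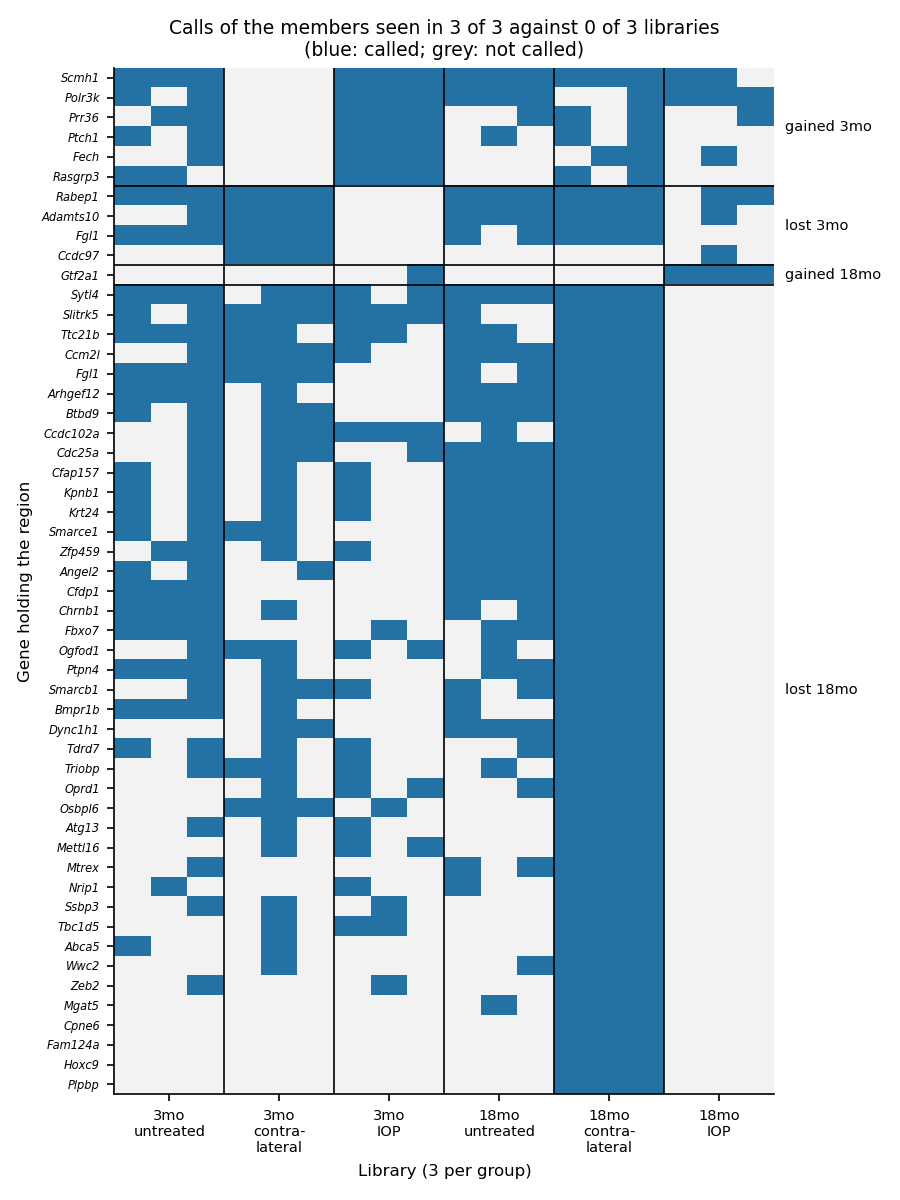
Calls of each region gained or lost after IOP (rows, named by gene) in the 18 libraries (columns, 3 per group), with blue for called and grey for not called. The 41 regions lost at 18 months are scattered over the other groups, and 4 of them were called in contralateral libraries of 18 months only.

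Across ages, the exact conditional test stratified by age could reach an unadjusted p under 0.05 in 5572 consensus regions, 159 of them exonic. It found 1 exonic region more often called after IOP (against 1.62% of those tested) and 7 less often (against 3.43%) at an unadjusted p under 0.05. No region of any class passed after adjustment, with the smallest adjusted p among exonic regions at 0.397. The smallest unadjusted p was 0.005 (exact conditional test), the least that 3 against 3 libraries at each age can give. Over 5572 regions this floor leaves a pass possible only if many regions split completely. The lack of a pass therefore does not show that calls were alike after IOP. Polr3k (3' UTR, chr2:181870085-181870754) was called in all 6 libraries of IOP eyes, in 1 of 6 from contralateral eyes (exact p = 0.02) and in 5 of 6 untreated libraries. Fgl1, a fibrinogen-like secreted protein, had a coding region in its last exon (chr8:41191506-41191747) called in 0 of 6 IOP, 6 of 6 contralateral and 5 of 6 untreated libraries (exact p = 0.005, adjusted p = 0.397).

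Smarce1 (exon 5, chr11:99220580-99220802) was called in 0 of 6 IOP, 5 of 6 contralateral and 5 of 6 untreated libraries (exact p = 0.02). Where called, its fold ran from 5.56 to 12.9. Its summit lay 156 bp from a start in the comprehensive GENCODE set. Adamts10, a metalloproteinase of microfibrils, had a peak in each of the 6 contralateral libraries and in 1 of 6 after IOP (exact p = 0.02). The remaining 2 of the 5 highest lay in Osbpl6 and Ccm2l.

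Peak fold gave few IOP differences. At 3 months 0 exonic regions passed the adjusted limma test in either direction (against 0.00404% of all regions higher and 0% lower). At an unadjusted p under 0.05, 4 were higher (against 1.54%) and 15 lower (against 1.76%). Among the regions at an unadjusted p under 0.05, the 4 increases were in Cnot8 (log2 difference 0.43, with a near copy of 97.1% identity elsewhere in the genome), Senp7 (0.39), Tmem170b (0.28) and Tubb5 (0.28), with an adjusted p of 1.0 each. The largest decreases among them were in Sec22b (-0.43), Scn8a (-0.41), Trp53tg5 (-0.40), Kif21b (-0.39) and 1810043G02Rik (-0.39), again with an adjusted p of 1.0.

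At 18 months 1 exonic region was lower and 0 were higher after IOP at an adjusted p under 0.05, against 0.0566% and 0.0323% of all regions. At an unadjusted p under 0.05, 49 were lower (8.96%, against 6.48% of all) and 9 higher (1.65%, against 5.81%). The median log2 difference was -0.03 over exonic regions and 0.02 over all regions. The region past the adjustment lay in the 3' UTR of Cdsn, which encodes the skin adhesion protein corneodesmosin (chr17:35556805-35557758). Its fold was 13.3, 11.4 and 14.5 in contralateral and 7.63, 6.45 and 6.16 in IOP libraries, and the groups did not overlap. The log2 difference was -0.75 (SE 0.14, limma adjusted p = 0.0361). Untreated libraries of 18 months had 11.1, 11.6 and 13.3. At 3 months the contralateral values (6.97, 10.9 and 7.66) and the IOP values (9.3, 7.29 and 8.46) overlapped. The call was lost in all 6 fits that left out 1 library of this comparison, with adjusted p up to 0.166 over all alternatives, while the log2 difference stayed between -0.79 and -0.69 in those 6 fits.

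Over both ages 1 exonic region was lower and 0 were higher after IOP at an adjusted p under 0.05, against 0.0323% and 0.0687% of all regions. Unadjusted, 42 were lower (against 5.25%) and 11 higher (against 4.19%). The region past the adjustment lay in the 3' UTR of 1810043G02Rik (chr10:77984517-77985091), 438 bp from the start of a predicted RefSeq transcript. At 3 months its fold was 5.6, 7.77 and 4.63 in contralateral and 4.74, 4.28 and 3.9 in IOP libraries. The 18-month values were 6.11, 5.21 and 7.04 in contralateral and 3.79, 3.64 and 3.23 in IOP libraries. The groups overlapped at 3 months and did not at 18 months. The log2 difference was -0.47 (SE 0.09, limma adjusted p = 0.0286), and it was not past the threshold in 10 of 18 alternatives.

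Whether the response to IOP depended on age was tested as an interaction in the same fit. At an adjusted p under 0.05, 0 exonic regions and 0 of all regions passed in either direction (0%), while 7 exonic regions were higher (against 1.44%) and 22 lower (against 2.87%) at an unadjusted p under 0.05. Cdsn was among the latter, with a difference of log2 differences of -0.78 (SE 0.19, limma adjusted p = 0.897). Among the regions at an unadjusted p under 0.05, the 2 larger decreases were in Ccdc77 (-1.14) and Cit (-0.82), and the largest increases in Trp53tg5 (0.71) and Erv3 (0.63), each with a limma adjusted p of 0.897.

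The kind of control gave the most differences of fold. Of 547 exonic regions, 85 (15.5%) were higher and 83 (15.2%) lower in contralateral than in untreated libraries at an adjusted p under 0.05, against 16.7% and 17.7% of all regions. With the shortest-peak class as a covariate the split was 86 higher and 110 lower, and with median centring 97 and 65. The covariate sets the libraries at 114 to 122 bp against all others. It therefore cannot adjust for the shortest-peak gap between contralateral and untreated libraries. Contralateral and untreated libraries differed in shortest peak without exception, so the origin of the eye and this technical measure cannot be told apart.

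The 2 directions differed in where the regions lay. The 85 higher regions were 57 coding and 28 3' UTR regions, with a median GC of 61.0%. The 83 lower regions were 22 coding, 58 3' UTR and 3 5' UTR regions, with a median GC of 52.0%. Over all 258 coding regions fitted the median log2 difference was 0.051 at a median GC of 61.0%, and over all 278 3' UTR regions it was -0.039 at 53.25%. Part of the transcript and GC moved together here, and the part of either was not tested. Over called regions of every class, median GC was 53.0% to 54.0% in untreated and 53.5% to 55.0% in contralateral libraries. Whether the GC split of fold is particular to exonic regions was not tested.

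**Figure D4:**
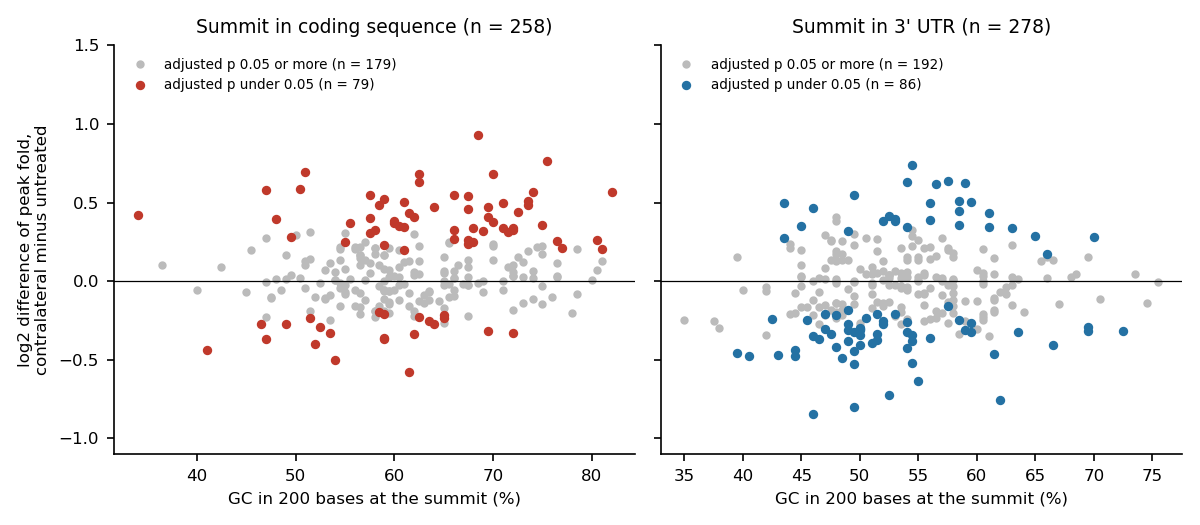
Log2 difference of peak fold between contralateral and untreated libraries (y axis) against GC of the 200 bases at the summit (x axis, percent) for coding (left, n = 258) and 3' UTR (right, n = 278) regions called in all 18 libraries, coloured where the limma adjusted p was under 0.05. Coloured coding points lie mostly above 0 and coloured 3' UTR points mostly below it.

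The largest increases in contralateral libraries were in Scn8a, Sptbn4 (exon 14) and Kcna2. The coding region in exon 12 of Scn8a, which encodes the sodium channel of axon initial segments (chr15:100983591-100984316), had a fold of 10.1, 12.6 and 9.82 in contralateral and 6.19, 5.54 and 8.82 in untreated libraries at 3 months. Its 18-month values were 9.45, 10.1 and 10.9 in contralateral and 6.54, 7.53 and 6.14 in untreated libraries. The groups did not overlap at either age, with a log2 difference of 0.93 (SE 0.09, limma adjusted p = 2.47e-06). IOP libraries had 8.93, 7.27 and 6.96 at 3 months and 8.13, 7.98 and 6.0 at 18 months. These raw folds lay below the contralateral libraries at both ages and within or near the untreated range. After normalization the log2 difference, IOP minus contralateral, was -0.41 at 3 months and -0.24 at 18 months. Neither passed the adjusted limma test.

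Exon 14 of Sptbn4 followed at 0.77 (SE 0.09, adjusted p = 1.1e-05), in the gene whose exon 33 region is described above. Kcna2, a voltage-gated potassium channel, had 0.74 (SE 0.13, adjusted p = 0.000323) in its 3' UTR. Mcub, a subunit of the mitochondrial calcium uniporter, and Slc1a6, a glutamate transporter, had 0.69 each (SE 0.15 and 0.14, adjusted p = 0.00172 and 0.000954). The raw folds of Sptbn4 exon 14, Kcna2, Mcub and Slc1a6 overlapped between the 2 kinds of control at 3 months, and the Slc1a6 summit lay 124 bp from the start of a predicted RefSeq transcript.

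The 5 regions with the largest decreases in contralateral libraries all lay in 3' UTRs. Cbln3, a cerebellin family gene (chr14:55879599-55879951), had a fold of 5.74, 7.58 and 4.37 in contralateral and 15.5, 16.4 and 18.8 in untreated libraries at 3 months. At 18 months it was 9.64, 6.44 and 10.3 in contralateral and 12.9, 12.7 and 16.1 in untreated libraries. The groups did not overlap at either age (log2 difference -0.84, SE 0.12, limma adjusted p = 9.41e-05).

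Dnajb2, a neuronal co-chaperone of Hsp70 (chr1:75244700-75245302), had 6.32, 9.88 and 7.92 in contralateral and 17, 15.4 and 17.7 in untreated libraries at 3 months. At 18 months it had 8.54, 7.28 and 10.3 in contralateral and 19.3, 16.3 and 17.9 in untreated libraries (log2 difference -0.80, SE 0.09, limma adjusted p = 1.52e-05). IOP libraries had 5.15 to 8.38 at 3 months and 5.54 to 8.77 at 18 months, near the contralateral ones and below all untreated ones. Ppp1r9b (spinophilin, a scaffold of dendritic spines), Iffo2 and Agap1 (an Arf GTPase-activating protein) had -0.76, -0.73 and -0.63, with adjusted p of 7.95e-06, 8.41e-05 and 1.93e-05.

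**Figure D5:**
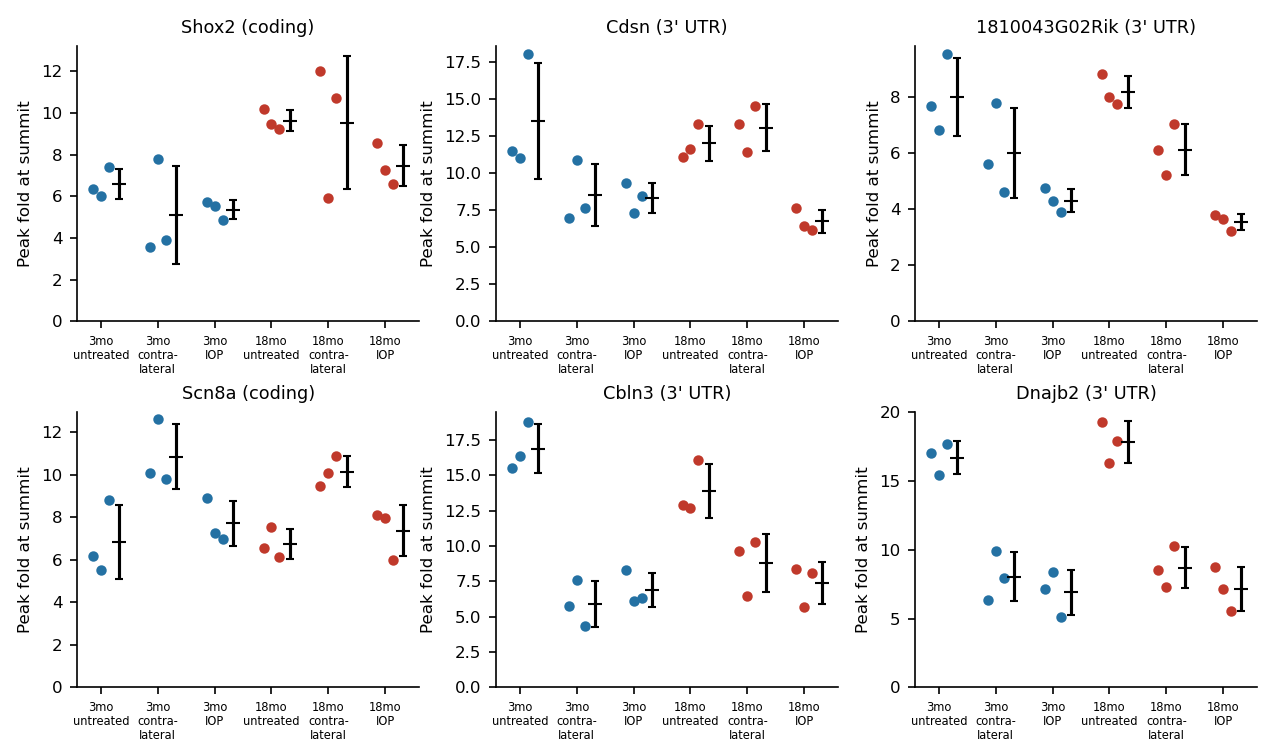
Raw peak fold at the summit, before normalization (y axis, from 0), in each library for 6 regions, by group. Blue points are 3 months, red points 18 months, and bars the group mean and SD (n = 3). Dnajb2 and Cbln3 show untreated libraries above all others (at least 15.4 and 12.7), and Cdsn shows the IOP libraries of 18 months at 6.16 to 7.63.

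The gene lists held 14 of the 547 regions fitted. None of the 14 passed the adjusted test for age or IOP. For the kind of control the Sptbn4 regions of exons 14 and 33 were among those higher in contralateral libraries, and 2 regions were lower (Kmt2a and Mmp9). The Mmp9 difference was -0.22 (SE 0.07, limma adjusted p = 0.0195).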

How the data were processed

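The data were ATAC-Seq peak lists of 18 mouse retina libraries, 3 in each of 6 groups taken from the sample labels. The authors aligned reads to mm10 and called peaks with MACS2 at q 0.05 (tools per the labels: STAR 2.7.8a, MACS2, HOMER, edgeR and bedtools 2.29.2), with 1 list deposited per library. The deposited columns used were the fold enrichment at the summit, a ratio to local background, and the −log10 q-value, while the deposited −log10 p-value and integer score were not used. The extract text that the samples share describes crosslinking and immunoprecipitation, while the labels and the study's methods give ATAC-Seq. Reads per region were not used here, so no count model was fitted.

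Regions were merged and assigned in Python 3.11.15 (pandas 2.3.3, pysam 0.24.0) with the GENCODE M21 basic set on GRCm38.p6. Calls were tested by Fisher's exact test (age) and an exact conditional test stratified by age (IOP), both two-sided, with Benjamini-Hochberg adjustment over all regions able to reach 0.05. Regions called in 3 of 3 against 0 of 3 libraries were counted. Fold was fitted with limma 3.58.1 in R 4.3.3 on quantile-normalized log2 values, with 6 group means, for regions called in all 18 libraries. Percentiles rank a fold within its list. Near copies were searched with blastn 2.17.0. Scripts were tested on simulated data. Peak lists limit precision by calling alone: a missing call is not a closed region.

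Named regions were the 10 tallest, those of the 10 genes with the most regions, the 5 largest per comparison and direction, and 3 genes per list. The members and lists were chosen with earlier results of these data known. Alternatives were a stricter q, equal peak numbers, 50% overlap, other start distances, peak-length strata or covariate, replicate blocks, median centring, −log10 q, regions in at least 15 libraries and leaving out each library. The comprehensive gene set was added after seeing the data. A few genes and 1 sequence window that these rules select are not reported here.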

Additional observations from a re-analysis of the deposited data

How the results depend on the processing

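The number of exonic regions was 2487 with starts over 1 kb away, 1716 over 5 kb, 1804 in at least 3 lists, 1924 at −log10 q of at least 3, 1885 with the comprehensive gene set and 1115 in coding sequence alone. Exonic regions called more often at 18 months (6) became 11 with equal peak numbers, and regions more often called at 3 months (0) became 1 within shortest-peak strata. Calls more frequent after IOP over both ages (1) became 2 with equal peak numbers and 2 at 50% overlap. Calls less frequent after IOP (7) became 4 at the stricter threshold and 1 with equal peak numbers. At 18 months, 41 lost and 1 gained became 12 and 12 with equal peak numbers, and 3 were gained at 50% overlap. None of these call alternatives, leave-one-out not counted, gave a call after adjustment, which so few libraries make hard to reach. Shares over all regions are not given for these alternatives, and the cause of these shifts was not tested.

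Fold differences with age (1) became 2 with median centring, 8 with −log10 q, 4 in at least 15 libraries, 5 with the shortest-peak covariate and 0 with starts over 5 kb. For IOP at 18 months (1) they became 4 in at least 15 libraries, 2 with the covariate and 0 with starts over 5 kb, and for IOP over both ages (1) they became 4 with −log10 q and 5 with the covariate. Shox2 and Cdsn lie 4.63 and 4.91 kb from a start, so the 5 kb setting leaves them out. Between kinds of control 134 were higher in at least 15 libraries and 53 lower with −log10 q. The setting of at least 15 libraries adds 118, 85 and 72 exonic regions, called in 17, 16 and 15 libraries, to the 547. Its counts for age, IOP and kind of control are therefore not on the same base as the main counts. Shares over all regions are not given for these fold settings. The 10 regions named for the kind of control stayed past the threshold in every alternative run (adjusted p up to 0.0149). Cdsn (−log10 q: -0.97, adjusted p = 0.0652) and 1810043G02Rik (-0.32, adjusted p = 0.48) did not. No alternative, the covariate included, adjusts for the shortest-peak gap between contralateral and untreated libraries.

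Leaving out 1 library gave ranges of 7 to 22 (more calls at 18 months, 22 without 3-month untreated replicate 6), 0 to 1 (more calls at 3 months), 1 to 7 and 7 to 21 (more and less calls after IOP). Exclusive calls ranged over 7 to 38 gained (38 without 3-month contralateral replicate 2) and 4 to 22 lost at 3 months. At 18 months they ranged over 1 to 11 gained (11 without IOP replicate 3) and 46 to 128 lost (128 without contralateral replicate 2). Fewer libraries make exclusive calls easier by construction. For untreated libraries the titles and the names of the deposited lists number replicates 4 and 6 in opposite order, and the titles were used. Fold counts ranged over 0 to 10 (age), 0 to 0 (IOP at 3 months), 0 to 1 (IOP at 18 months), 0 to 5 (IOP over both ages), 0 to 0 (IOP by age), and 69 to 83 higher and 62 to 86 lower (kind of control).

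Whether replicate numbers pair the eyes of an animal could not be settled. Correlations of deviations between contralateral and IOP libraries of the same number were -0.313, -0.239 and 0.199 at 3 months. At 18 months they were 0.356, 0.212 and -0.155. These values were positive where both libraries fell in the same shortest-peak class and negative where the classes differed. Pairing can therefore not be read from them. With the replicate block, 0 regions were more often called at 18 months, and 0 more and 1 less often after IOP. Each block set 1 library against 1, so only a call in all 6 libraries of 1 side and none of the other could pass. For age the block joined libraries of different ages by number. Fold counts did not move, at a consensus correlation of -0.0112 within blocks. Neither result can therefore show whether the eyes were paired.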
